A study of Mus musculus with 7 samples.

Results

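The genes described here are established transcriptional targets of p53, together with the regulators that hold p53 in check, in cultured mouse melanoma and endothelial cells. A list of 33 gene symbols was matched to the array annotation, and the 29 members with a probe set that carried their symbol alone were measured, out of 19938 genes tested. Trp53 itself, which encodes p53, and Bax, Fdxr and Gdf15 had no such probe set and were not analysed here. Probe sets were matched to members by symbol alone.

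RNA from 7 cultures was hybridised to Affymetrix Mouse Gene 1.0 ST arrays, 1 array per sample. Clones A2, A3, A4 and A5 of the pigmented mouse melanoma line B16F10 were labelled positive for PECAM (PECAM1+, n = 4), and clone A1 and the parental B16F10 population were labelled negative (PECAM1-, n = 2). The last sample was mouse dermal endothelial cells (MDEC, n = 1), grown in DMEM with an endothelial supplement in place of the serum medium of the B16F10 cultures, so cell type and medium cannot be told apart in it. No drug, irradiation or other p53-activating treatment is named in the labels, and the labels give no genotype of Trp53. Whether the PECAM1+ clones have separate origins, and whether each array had a culture of its own, is not in the labels. The p-values thus cover the scatter of these arrays, part or all of which may be technical.

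p53 is a transcription factor that is kept scarce in unstressed cells by the ubiquitin ligase Mdm2. DNA damage, nucleolar stress or oncogene activity frees it, and it then binds response elements near genes for growth arrest, DNA repair, metabolism and cell death. Mdm2 is itself a target, which closes a feedback loop. Many melanomas keep the p53 gene intact and restrain the protein in other ways, through Mdm4 among them.

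The promoter sequences of 5 genes are printed because their genes passed the test between clone A1 and parental cells and also hold a p53 decamer, the half-site from which p53 response elements are built. RefSeq windows of assembly GRCm38.p6, running from 250 bases before to 50 bases after a transcription start, were found for 21 of the 29 members. The decamer consensus is RRRCWWGYYY, where R is A or G, W is A or T and Y is C or T. It is its own reverse complement, so a search covers both strands. Every base had to match. Of the 21 genes, 9 held at least 1 decamer (42.9%), against 9.55% of 27025 genes with such windows. A full site was a pair of such exact decamers with 0 to 13 bases between them. It was in 0 of the 28 windows of these members and in 0.0731% of all 32851 windows. A pair with a mismatch was not counted. Near matches lie beside the decamer in the printed Ccng1 and Gtse1 windows and are left in small letters. A match is a description of letters and not of binding. No window was given for Ddb2, Perp, Pmaip1, Rrm2b, Tnfrsf10b, Trp53inp1, Xpc or Zmat3. The printed windows are those of Mdm2 (chr10:117710709-117711008, minus strand), Gadd45a (chr6:67037358-67037657, minus strand), Polk (chr13:96519138-96519437, minus strand), Ccng1 (chr11:40755237-40755536, minus strand) and Gtse1 (chr15:85859696-85859995, plus strand). Each reads 5′ to 3′ along its gene, with the decamer in capitals. The decamer begins 186 bases before the start in Mdm2, 40 before it in Gadd45a, 231 before it in Polk, 185 before it in Ccng1 and 9 after it in Gtse1.
Mdm2: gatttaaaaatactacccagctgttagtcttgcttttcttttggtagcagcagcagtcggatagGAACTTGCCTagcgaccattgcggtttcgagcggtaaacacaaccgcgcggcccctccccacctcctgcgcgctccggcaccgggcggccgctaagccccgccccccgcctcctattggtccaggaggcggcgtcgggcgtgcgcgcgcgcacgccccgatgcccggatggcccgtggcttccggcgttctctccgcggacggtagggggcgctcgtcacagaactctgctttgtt
Gadd45a: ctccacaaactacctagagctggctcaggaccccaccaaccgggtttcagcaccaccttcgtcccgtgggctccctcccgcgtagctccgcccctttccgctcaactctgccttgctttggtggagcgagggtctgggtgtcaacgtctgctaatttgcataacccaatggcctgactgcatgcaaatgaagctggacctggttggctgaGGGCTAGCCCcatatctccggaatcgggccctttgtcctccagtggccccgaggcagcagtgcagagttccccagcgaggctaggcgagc
Polk: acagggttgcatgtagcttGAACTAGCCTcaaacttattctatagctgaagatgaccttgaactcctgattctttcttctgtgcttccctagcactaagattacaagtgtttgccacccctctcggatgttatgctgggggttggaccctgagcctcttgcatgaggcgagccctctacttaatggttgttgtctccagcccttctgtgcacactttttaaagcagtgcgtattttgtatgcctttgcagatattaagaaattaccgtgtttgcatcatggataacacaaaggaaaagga
Ccng1: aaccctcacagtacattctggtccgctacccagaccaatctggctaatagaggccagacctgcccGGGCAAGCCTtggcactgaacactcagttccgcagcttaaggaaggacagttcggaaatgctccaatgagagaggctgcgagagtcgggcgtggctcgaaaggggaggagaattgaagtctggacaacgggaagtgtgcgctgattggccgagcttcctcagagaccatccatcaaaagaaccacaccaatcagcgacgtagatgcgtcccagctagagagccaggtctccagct
Gtse1: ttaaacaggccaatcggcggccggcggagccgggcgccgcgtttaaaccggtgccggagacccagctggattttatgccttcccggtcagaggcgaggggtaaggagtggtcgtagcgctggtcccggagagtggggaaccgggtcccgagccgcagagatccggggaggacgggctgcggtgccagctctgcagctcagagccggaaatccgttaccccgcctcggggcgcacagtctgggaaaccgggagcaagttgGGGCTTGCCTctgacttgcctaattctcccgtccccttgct

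All values below are the deposited log2 values, on which a difference of 1 is a 2-fold change, and levels of different genes are not compared because each probe set has its own brightness. The median of an array lay between 6.12 and 6.18. Pecam1, the gene the labels name, had 11.07, 11.01, 11.03 and 11.00 in clones A2 to A5, against 5.43 in clone A1 and 5.27 in parental cells, so the arrays followed their labels. The median of 7 melanocyte markers was 12.13 to 12.52 in the 6 B16F10 arrays, and that of 7 endothelial markers was 11.10 in MDEC, against 4.76 to 5.03 in B16F10. Clone A1 stood apart: 1271 genes lay at least 2-fold from their mean over the other 5 B16F10 arrays in it, against 31 to 144 in each of the other arrays. Comparisons are therefore given against both PECAM1- samples and against each of them. The comparisons share arrays and are not independent of each other. In cultures measured in bulk, fewer cells that express a gene and less of its RNA per cell cannot be told apart.

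**Figure D1:**
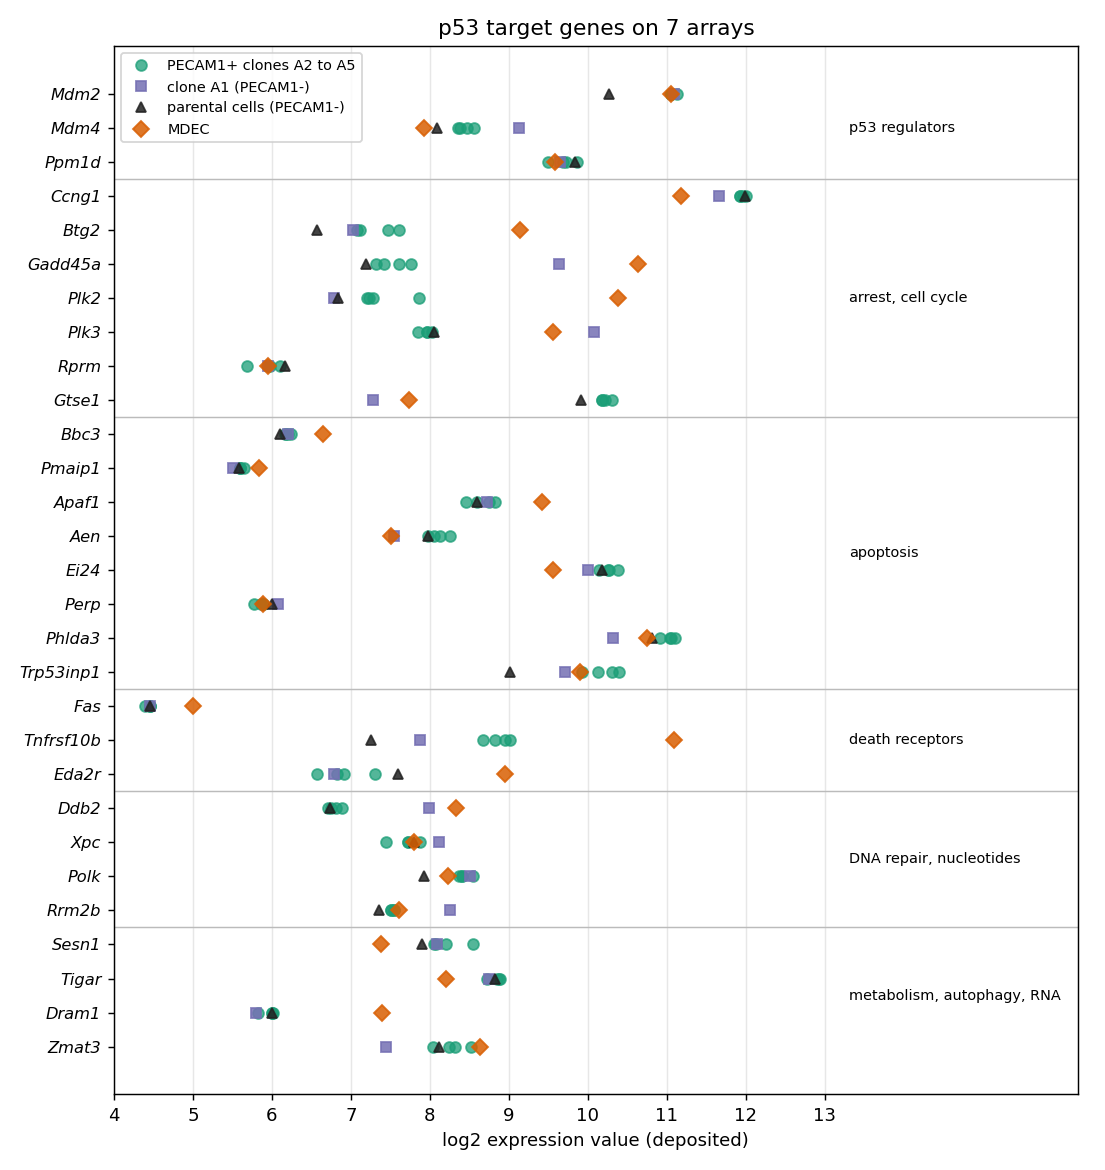
Deposited log2 value (horizontal axis) of each of the 29 measured p53 target genes (rows, grouped by role) on each of the 7 arrays. Symbols mark the PECAM1+ clones, clone A1, parental cells and MDEC. Mdm2 in parental cells lies left of the other arrays, clone A1 lies apart for Gadd45a, Plk3, Gtse1 and Ddb2, and MDEC lies to the right for Plk2, Tnfrsf10b, Gadd45a and Btg2.

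The study's own contrast set the PECAM1+ clones against the PECAM1- samples. Of the 29 p53 target genes, 0 passed a limma adjusted p of 0.05, beside 0.01% of all genes tested. At an unadjusted limma p under 0.05 there were 5 members, Tnfrsf10b, Trp53inp1, Phlda3, Plk2 and Perp, beside 9.18% of all genes. The median difference over the members was 0.06, against 0.00 over all genes. In 8 members every PECAM1+ clone lay above both PECAM1- samples, beside 7.73% of all genes, and in 2 members every clone lay below both, beside 8.68%. The 8 were Btg2, Plk2, Gtse1, Pmaip1, Aen, Phlda3, Trp53inp1 and Tnfrsf10b, and the 2 were Plk3 and Perp. These counts are descriptions, and the sizes were small in most cases: only Tnfrsf10b and Gtse1 were at least 2-fold higher, beside 1.27% of all genes, and only Plk3 was at least 2-fold lower, beside 0.492%.

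Tnfrsf10b, the mouse receptor for the death ligand TRAIL, had the smallest unadjusted p of the 29 members. Its log2 values were 8.95, 8.68, 8.82 and 9.02 in clones A2 to A5, against 7.88 in clone A1 and 7.26 in parental cells. The 4 PECAM1+ clones were all higher than both PECAM1- samples, which themselves differed by 0.62. The difference was 1.30 ± 0.20 (SE) with a limma adjusted p of 0.312, so it was not called. Set against parental cells alone the difference was 1.61 ± 0.15, a 3.05-fold difference in level, with a limma adjusted p of 0.099. Against clone A1 alone it was 0.99 ± 0.15, with a limma adjusted p of 0.0226 that was at most 0.0685 and over the threshold without clone A2, A4 or A5.

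Trp53inp1 encodes a stress-induced protein that promotes the phosphorylation of p53 and takes part in autophagy. It had 10.13, 9.93, 10.30 and 10.39 in clones A2 to A5, against 9.71 in clone A1 and 9.02 in parental cells. Again no PECAM1+ clone reached down to either PECAM1- sample. The clones lay 0.82 ± 0.23 above the PECAM1- samples (limma adjusted p = 0.436) and 1.17 ± 0.20 above parental cells (limma adjusted p = 0.168), and neither was called.

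Among the regulators of p53, Mdm2 set the parental population apart from every clone. It had 11.05, 11.05, 11.05 and 11.12 in clones A2 to A5, 11.09 in clone A1 and 10.26 in parental cells. The 5 clones, PECAM1+ or not, lay within 11.05 to 11.12, and parental cells were the low array. Clone A1 was 0.83 ± 0.06 higher than parental cells, a 1.78-fold difference, with a limma adjusted p of 0.00756. The PECAM1+ clones were higher by 0.81 ± 0.05, with a limma adjusted p of 0.0931 that missed the threshold. They differed from clone A1 by -0.02 ± 0.05 (limma adjusted p = 0.865). The values of clones A2, A3 and A4 were identical to the last digit, which makes the spread of this gene, and so its SE, smaller than it may be. With all 5 clones as one group, a comparison added after the values had been seen, the difference was 0.81 ± 0.07 with a limma adjusted p of 0.189, and 0 members were called, beside 0% of all genes.

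Mdm4, a relative of Mdm2 that binds p53 and blocks its activity as a transcription factor, was highest in clone A1. It had 8.35, 8.37, 8.47 and 8.55 in clones A2 to A5, 9.13 in clone A1 and 8.09 in parental cells. The PECAM1+ clones lay between the PECAM1- samples without reaching either. Clone A1 was 1.04 ± 0.13 above parental cells (limma adjusted p = 0.0192), and the PECAM1+ clones were 0.69 ± 0.10 below clone A1, a difference of -0.69 with a limma adjusted p of 0.0198. Both calls were lost when clone A3 was left out, and the second also without clone A4, with limma adjusted p of up to 0.0581 and 0.0655. Ppm1d, the phosphatase Wip1 that dampens DNA damage signalling, ranged from 9.49 to 9.86 in the clones, against 9.65 in clone A1 and 9.84 in parental cells, with groups that overlapped.

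**Figure D2:**
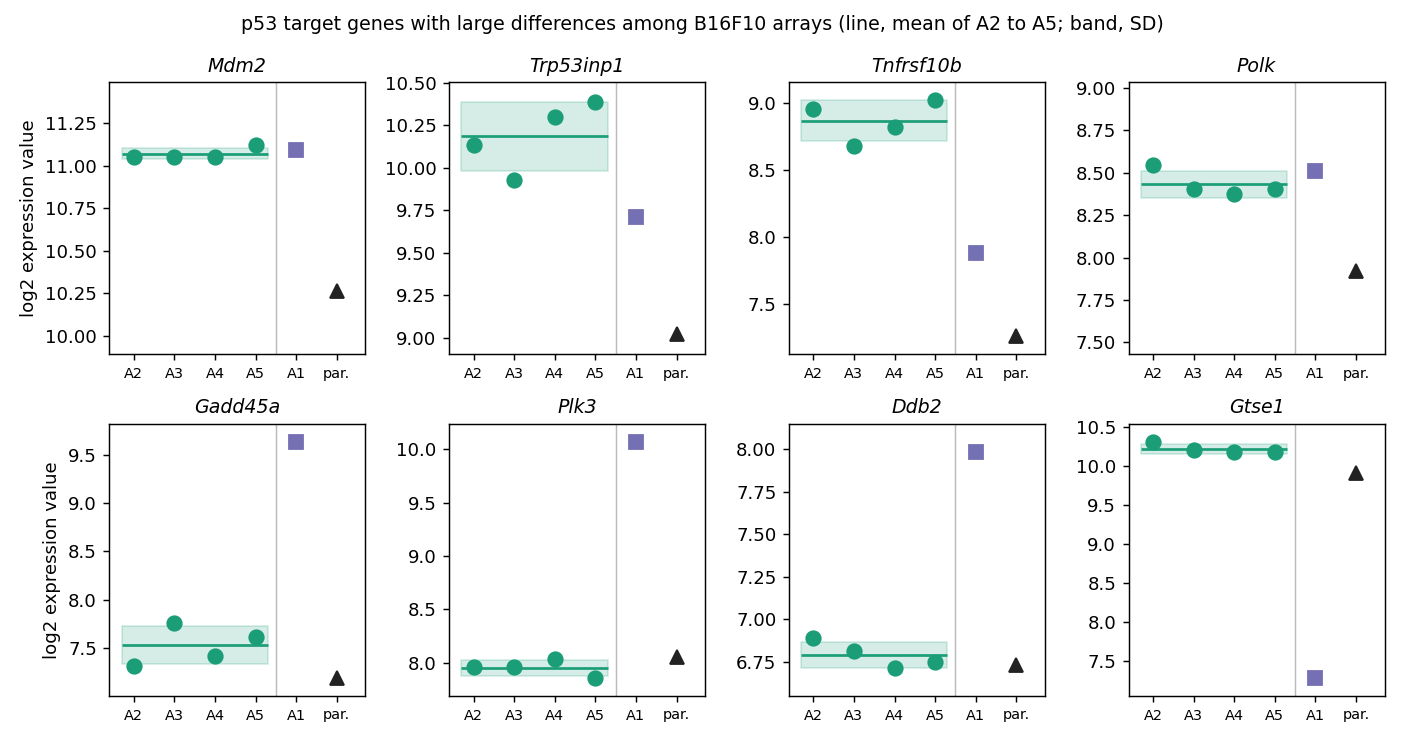
Deposited log2 value (vertical axis, a separate scale per panel) of 8 p53 target genes in clones A2 to A5, clone A1 and parental cells (par.). Points are single arrays, the line is the mean of the PECAM1+ clones and the band their SD (n = 4). Mdm2 and Polk are low in parental cells alone, and Gadd45a, Plk3 and Ddb2 are high and Gtse1 low in clone A1 alone.

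The parental population was then set apart from clone A1. Parental cells held the lowest of the 6 B16F10 values for 10 of the 29 members, beside 15.2% of all genes, and the highest for 2, beside 15.6%. The 10 were Mdm2, Mdm4, Btg2, Gadd45a, Bbc3, Trp53inp1, Tnfrsf10b, Polk, Rrm2b and Sesn1, and the 2 were Rprm and Eda2r. In the comparison of the PECAM1+ clones with parental cells, 0 members were called by limma, beside 0.01% of all genes. At an unadjusted limma p under 0.05, 8 members were higher, beside 6.79% of all genes, and Perp was lower, beside 6.68%. The median difference was 0.09 over the members and -0.00 over all genes, and 20 of 29 differences were above 0, beside 48.3% of all genes.

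Polk, a DNA polymerase that copies past damaged bases, was, like Mdm2, lowest in parental cells. Its values were 8.54, 8.40, 8.37 and 8.40 in clones A2 to A5, 8.51 in clone A1 and 7.92 in parental cells. All 5 clones were above parental cells and overlapped with each other. The PECAM1+ clones lay 0.51 ± 0.09 above parental cells (limma adjusted p = 0.165), and clone A1 was 0.59 ± 0.11 higher (limma adjusted p = 0.0436). The second call was lost on leaving out clone A3, A4 or A5, with a limma adjusted p of up to 0.106.

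Btg2 encodes an antiproliferative partner of the mRNA deadenylation machinery. It had 7.08, 7.61, 7.12 and 7.47 in clones A2 to A5, 7.03 in clone A1 and 6.57 in parental cells. The clones spread over more than the gap between clone A2 and clone A1, and the difference from parental cells, 0.75 ± 0.25, had a limma adjusted p of 0.34.

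**Figure D3:**
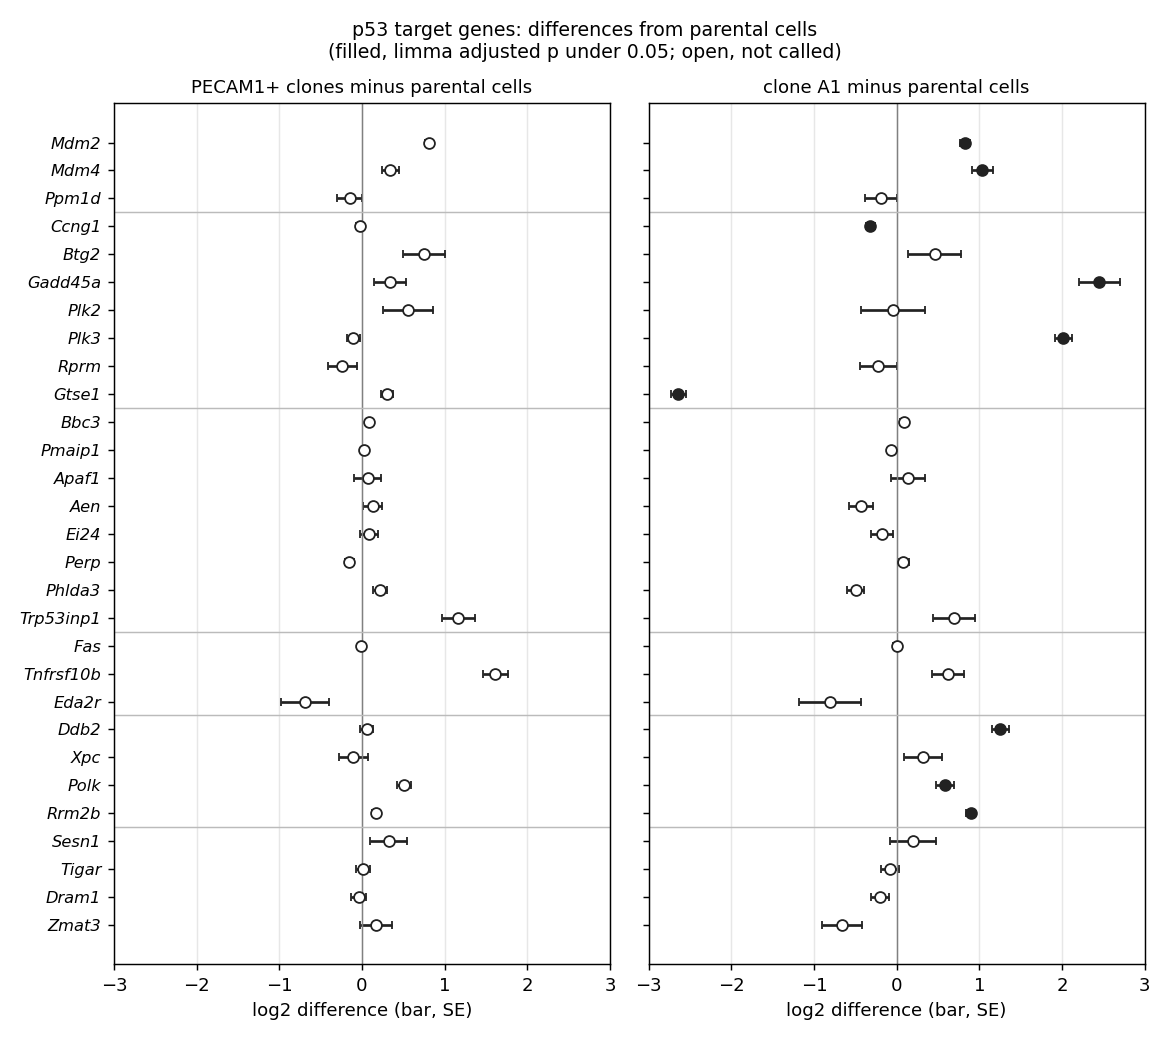
Log2 difference from parental cells (horizontal axis) of the PECAM1+ clones (left) and clone A1 (right) for the 29 p53 target genes, with bars for the SE of the limma fit. In the left panel 0 genes are called, and in the right panel 9 are, 7 of them higher and 2 lower.

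Every call of a member came from a comparison that rested on clone A1. Against parental cells 9 of 29 members were called, beside 14.4% of all genes: 7 were higher, beside 7.83%, and 2 were lower, beside 6.52%. Setting the PECAM1+ clones against clone A1 called 10 members, beside 20.5% of all genes, with 5 higher in the PECAM1+ clones, beside 9.33%, and 5 lower, beside 11.2%. Both sides of the first comparison are single arrays, whose spread was taken from the 4 PECAM1+ clones. The same holds for clone A1 in the second.

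Among the growth arrest genes, Gadd45a, a small nuclear protein that binds PCNA and stress kinases, had 7.32, 7.76, 7.42 and 7.61 in clones A2 to A5, 9.63 in clone A1 and 7.19 in parental cells. The PECAM1+ clones were close to parental cells and far below clone A1. Clone A1 was 5.46-fold above parental cells (2.45 ± 0.25, limma adjusted p = 0.0135). The PECAM1+ clones differed from clone A1 by -2.11 ± 0.20 (limma adjusted p = 0.00823). The call between clone A1 and parental cells was narrowly lost without clone A5, at a limma adjusted p of 0.054.

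Plk3 encodes a stress-induced polo-like kinase. It had 7.96, 7.96, 8.03 and 7.85 in clones A2 to A5, 10.07 in clone A1 and 8.05 in parental cells. The PECAM1+ clones all lay below both PECAM1- samples, but by 0.10 on average from parental cells and by 2.12 from clone A1. Clone A1 exceeded parental cells by 2.02 ± 0.10 (limma adjusted p = 0.00567). In the PECAM1+ clones Plk3 was lower than in clone A1, with a difference of -2.12 ± 0.08 (limma adjusted p = 0.00236).

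Gtse1 is a microtubule-binding protein made late in the cell cycle that moves p53 out of the nucleus. It had 10.31, 10.21, 10.18 and 10.18 in clones A2 to A5, 7.27 in clone A1 and 9.91 in parental cells. Clone A1 was the low array by a wide margin, and parental cells lay just under the PECAM1+ clones. The PECAM1+ clones were 7.70-fold above clone A1 (2.95 ± 0.07, limma adjusted p = 0.00165), and clone A1 differed from parental cells by -2.64 ± 0.09 (limma adjusted p = 0.00433).

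Ccng1 encodes an unusual cyclin that p53 induces. Clones A2 to A5 had 11.93, 11.92, 11.97 and 12.00, clone A1 had 11.66 and parental cells had 11.98. Only clone A1 stood below the rest. The PECAM1+ clones were higher than clone A1 by 0.29 ± 0.04 (limma adjusted p = 0.0203), and clone A1 differed from parental cells by -0.32 ± 0.05 (limma adjusted p = 0.0356). Both calls were lost in some alternatives, the second on leaving out any single PECAM1+ clone, with a limma adjusted p of up to 0.0791.

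Plk2, another stress-induced polo-like kinase, had 7.22, 7.86, 7.21 and 7.28 in clones A2 to A5, against 6.79 in clone A1 and 6.84 in parental cells. Clone A3 was the high array, and every PECAM1+ clone was above both PECAM1- samples. The difference of 0.58 ± 0.21 had a limma adjusted p of 0.494. Rprm, a mediator of arrest before mitosis, ranged from 5.68 to 6.10 in the PECAM1+ clones, against 5.94 in clone A1 and 6.16 in parental cells, and overlapped between the groups.

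In clone A1 all 4 DNA repair genes lay above parental cells, beside 42.2% of all genes. The 3 called higher were Polk, Ddb2 and Rrm2b, beside 7.83% of all genes. Ddb2, which recognises ultraviolet damage for nucleotide excision repair, had 6.89, 6.81, 6.71 and 6.75 in clones A2 to A5, 7.99 in clone A1 and 6.73 in parental cells. The PECAM1+ clones surrounded the parental value. Clone A1 was 2.38-fold above parental cells (1.25 ± 0.10, limma adjusted p = 0.00932), and the PECAM1+ clones differed from clone A1 by -1.20 ± 0.08 (limma adjusted p = 0.0049). Rrm2b, the p53-inducible subunit of ribonucleotide reductase that supplies nucleotides for repair, had 7.51, 7.55, 7.55 and 7.51 in clones A2 to A5, 8.26 in clone A1 and 7.36 in parental cells. Clone A1 was high and parental cells lowest. The values of clones A3 and A4 were identical to the last digit, so the spread of Rrm2b, and its SE, may be too small. Clone A1 was 0.89 ± 0.06 above parental cells (limma adjusted p = 0.0065), and the PECAM1+ clones differed from clone A1 by -0.73 ± 0.04 (limma adjusted p = 0.00409). Xpc, the partner of Ddb2 in damage recognition, had 7.44 to 7.88 in the PECAM1+ clones, 8.11 in clone A1 and 7.80 in parental cells, and was not called (clone A1 minus parental cells 0.32 ± 0.23, limma adjusted p = 0.46).

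Of 8 measured apoptosis genes, 2 were called against clone A1, near the share of all genes (20.5%). Phlda3, a p53-induced inhibitor of the survival kinase Akt, had 11.04, 11.05, 10.92 and 11.11 in clones A2 to A5, against 10.32 in clone A1 and 10.81 in parental cells. All PECAM1+ clones were above both PECAM1- samples. They were higher than clone A1 by 0.71 ± 0.08 (limma adjusted p = 0.0134), a call lost without clone A3. Aen, a nuclease that digests DNA in dying cells, had 8.12, 8.06, 7.98 and 8.25 in clones A2 to A5, against 7.54 in clone A1 and 7.97 in parental cells. Clone A4 lay almost level with parental cells, and clone A1 was low. The PECAM1+ clones were higher than clone A1 by 0.56 ± 0.12 (limma adjusted p = 0.0462), a call lost on leaving out any single PECAM1+ clone.

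The Bcl-family killers Bbc3 (Puma) and Pmaip1 (Noxa) barely varied. Bbc3 lay between 6.11 and 6.24 and Pmaip1 between 5.51 and 5.64 over the 6 B16F10 arrays. Pmaip1 was thus under the log2 value of 6 that set the limit for dim genes. Whether either gene gave signal over background is unknown. Perp, a membrane protein of desmosomes, was 5.78 to 5.88 in the PECAM1+ clones, against 6.08 in clone A1 and 6.00 in parental cells, and its difference of -0.19 ± 0.05 had a limma adjusted p of 0.433. Apaf1, the scaffold of the caspase-activating apoptosome, ranged from 8.46 to 8.82 in the PECAM1+ clones, and both PECAM1- samples fell inside that range. Ei24, a membrane protein of the endoplasmic reticulum, ranged from 10.14 to 10.38 in the clones, against 10.00 in clone A1 and 10.18 in parental cells. Neither gene was called in any of the comparisons.

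Of the other death receptors, Fas stayed at 4.39 to 4.46 over the 6 B16F10 arrays. It too was under the limit for dim genes, and every B16F10 array but clone A2 had the same value. Eda2r, the receptor for an ectodysplasin isoform, had 7.31, 6.91, 6.83 and 6.57 in clones A2 to A5, against 6.78 in clone A1 and 7.59 in parental cells. Parental cells were the high array and the clones spread widely. The PECAM1+ clones differed from parental cells by -0.69 ± 0.30, with a limma adjusted p of 0.449.

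The metabolic and RNA-binding members gave 0 calls in these comparisons as fitted. Sesn1, a stress-induced inhibitor of mTOR signalling, had 8.05 to 8.55 in the PECAM1+ clones, 8.10 in clone A1 and 7.90 in parental cells. Tigar, which lowers glycolytic flux, stayed between 8.73 and 8.89 in B16F10 arrays, and Dram1, a lysosomal protein of autophagy, between 5.80 and 6.01. Zmat3, a zinc finger protein that binds RNA, had 8.51, 8.04, 8.32 and 8.25 in clones A2 to A5, against 7.45 in clone A1 and 8.11 in parental cells. Clone A1 was the low array, but the difference of the PECAM1+ clones from it, 0.83 ± 0.19, had a limma adjusted p of 0.056. It was called in 3 of 10 alternatives, under quantile normalization, median centring and without dim genes, with a limma adjusted p down to 0.0273. Dram1 was called without clone A2, with a limma adjusted p of 0.0238 against clone A1 and 0.0357 for clone A1 against parental cells.

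Among the 4 PECAM1+ clones, the SD of a member had a median of 0.09, against 0.10 over all genes, and ran from 0.02 for Pmaip1 to 0.31 for Plk2. Clone A5 held the highest of the 6 B16F10 values for 9 members, beside 13.2% of all genes: Mdm2, Ccng1, Bbc3, Pmaip1, Apaf1, Aen, Phlda3, Trp53inp1 and Tnfrsf10b. Clone A2 held it for 6, beside 13.1%, and clone A4 for Dram1 alone, beside 13.2%.

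MDEC, the endothelial sample, had 1 array, so its members are described by size and not tested. A member counted as different when its MDEC value was 4-fold or more away from B16F10, taken as the average of the PECAM1+ and PECAM1- means, and no B16F10 array was as extreme. That held for 4 of 29 members, beside 4.73% of all genes, and all 4 were higher in MDEC, beside 2.72% of all genes. Plk2 had 10.38 in MDEC, against 6.79 to 7.86 in B16F10, a 9.68-fold difference. Tnfrsf10b had 11.10 in MDEC, against 7.26 to 9.02 in B16F10, a 7.36-fold difference. MDEC lay far above every melanoma array for both genes. Gadd45a had 10.64 in MDEC, against 7.19 to 9.63 in B16F10, with clone A1 the nearest array, and the fold was 6.35. Btg2 had 9.14 in MDEC, against 6.57 to 7.61 in B16F10, a 4.23-fold difference.

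A 2-fold limit added Eda2r (8.95 in MDEC, 3.74-fold), Dram1 (7.40 in MDEC, 2.76-fold) and Ddb2 (8.33 in MDEC, 2.38-fold), which made 7 members higher, beside 6.4% of all genes, and 0 lower, beside 6.86%. Gtse1 had 7.73 in MDEC, inside the B16F10 range because clone A1 had 7.27. With clone A1 left out, 5 members passed 4-fold, beside 5.31% of all genes, and the added one was Gtse1, lower in MDEC with a difference of -2.34. MDEC held the highest of the 7 values for 12 members, beside 26.5% of all genes, and the lowest for 6, beside 26.3%. The 6 were Mdm4, Ccng1, Aen, Ei24, Sesn1 and Tigar, with differences from B16F10 between -0.74 and -0.42. Mdm2, at 11.05 in MDEC, was level with the B16F10 clones.

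**Figure D4:**
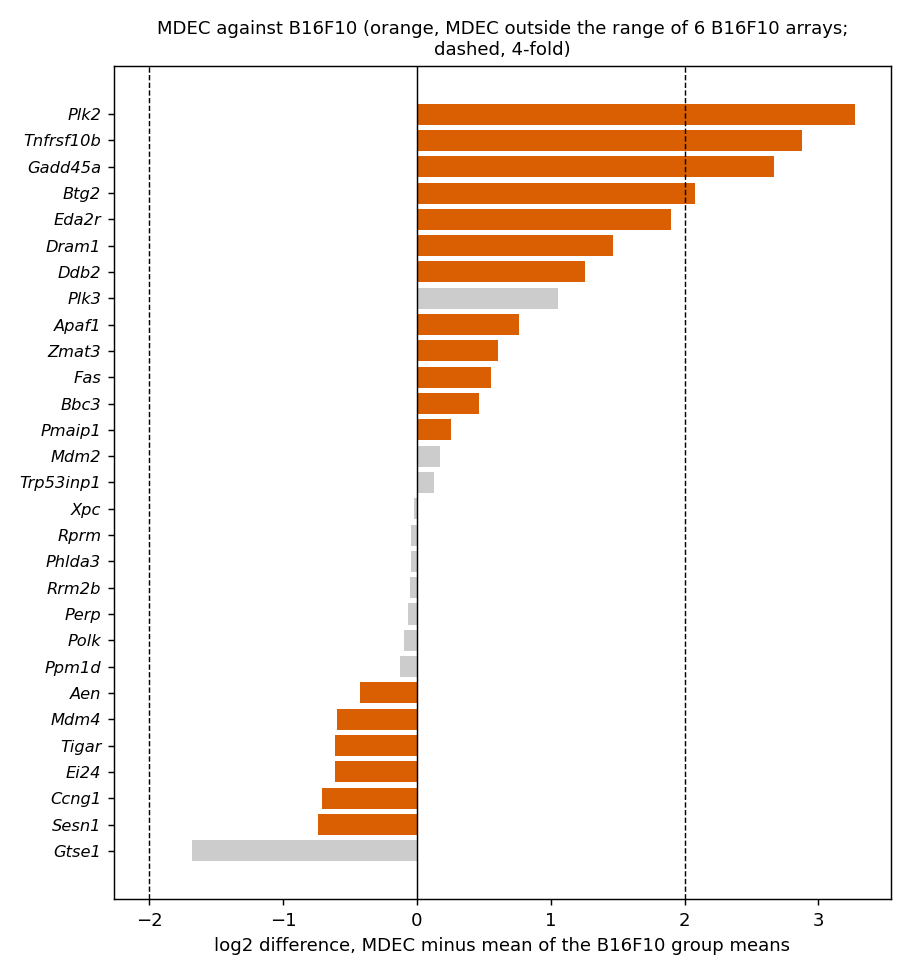
Log2 difference between MDEC and the average of the PECAM1+ and PECAM1- means (horizontal axis, bars from 0) for each p53 target gene, ordered by size. Orange bars mark genes whose MDEC value lies outside the range of the 6 B16F10 arrays, and dashed lines mark 4-fold. Plk2, Tnfrsf10b, Gadd45a and Btg2 pass the upper line and 0 genes pass the lower one.

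Other genes of the pathway were counted from lists. The list of kinases, cofactors and other regulators that act on p53 had 29 measured genes. Against the PECAM1- samples 0 were called, and 0 against parental cells, beside 0.01% of all genes in each. Against clone A1, 3 were called higher in the PECAM1+ clones (Atm, Chek1 and Chek2, kinases of the DNA damage checkpoint), beside 9.33% of all genes, and 7 were called lower, beside 11.2%. The 3 make 10.3% of the list, close to the share of all genes, while the 7 called lower make more of the list than 11.2%. Atm is named for this count after its value was seen. The largest were Trim24, a ubiquitin ligase for p53, at -1.45 ± 0.13 (limma adjusted p = 0.00735), and Chek1, at 1.37 ± 0.19 (limma adjusted p = 0.0173). Clone A1 against parental cells called 6 higher, Trim24 and the kinase gene Prkdc among them. The 6 also make more of the list than the 7.83% of all genes. Only 1, Chek1, was called lower, beside 6.52%. In MDEC 1 gene of the list passed 4-fold, beside 4.73% of all genes: the p53 kinase gene Hipk2 was lower, with a difference of -2.48. The list's median difference between clone A1 and parental cells was 0.17, against 0.00 over all genes.

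The list of further targets, most of them established in human cells, had 71 measured genes. Cdkn1a, Gls2, Ptp4a1, Sco2 and Trp53cor1 were also listed but had no probe set of their symbol alone, so they were not measured. Against the PECAM1- samples 0 of the 71 were called, and 0 against parental cells, beside 0.01% of all genes in each. Lif, a cytokine known for keeping mouse embryonic stem cells undifferentiated, had 7.56, 7.90, 7.59 and 7.19 in clones A2 to A5, against 6.30 in clone A1 and 5.86 in parental cells. No PECAM1+ clone overlapped with the PECAM1- samples, and the difference of 1.48 ± 0.22 had a limma adjusted p of 0.312. Against clone A1, 13 were called higher in the PECAM1+ clones, which is 18.3% of the list beside 9.33% of all genes, and 7 were called lower, which is 9.86% beside 11.2%. The largest were Psrc1, a spindle protein, at 1.58 ± 0.16 (limma adjusted p = 0.00921) and Sertad1 at -1.56 ± 0.07 (limma adjusted p = 0.00286). Clone A1 against parental cells called 8 higher, beside 7.83% of all genes, and 6 lower, beside 6.52%. In MDEC 5 passed 4-fold upward (Ces2g, Csf1, Epha2, Notch1 and Trp53i11), beside 2.72% of all genes, and 3 downward (Cmbl, Cyfip2 and Retsat), beside 2.01%, with Ces2g and Csf1 named for the count after their values were seen.

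Other gene programs moved with clone A1, and their part in the p53 target differences was not tested. All 15 measured proliferation genes were called lower in clone A1 than in parental cells, beside 6.52% of all genes, and higher in the PECAM1+ clones than in clone A1, beside 9.33%, with median differences of -3.72 and 3.43. Ccna2, cyclin A, had 11.48, 11.39, 11.33 and 11.34 in clones A2 to A5, 6.92 in clone A1 and 11.54 in parental cells. Only clone A1 was low. Of 14 genes of the ATF4 and CHOP stress response, limma called 8 higher in clone A1 than in parental cells, beside 7.83% of all genes, and 0 lower, beside 6.52%. The median difference of that list was 1.46, against 0 over all genes. Of its 14 differences, 11 were above 0, beside 42.2% of all genes. The cystine transporter gene Slc7a11 had 7.30, 8.23, 7.79 and 8.23 in clones A2 to A5, 11.41 in clone A1 and 5.80 in parental cells. In MDEC the median difference from B16F10 was -1.83 for the proliferation genes and 1.51 for the stress genes.

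**Figure D5:**
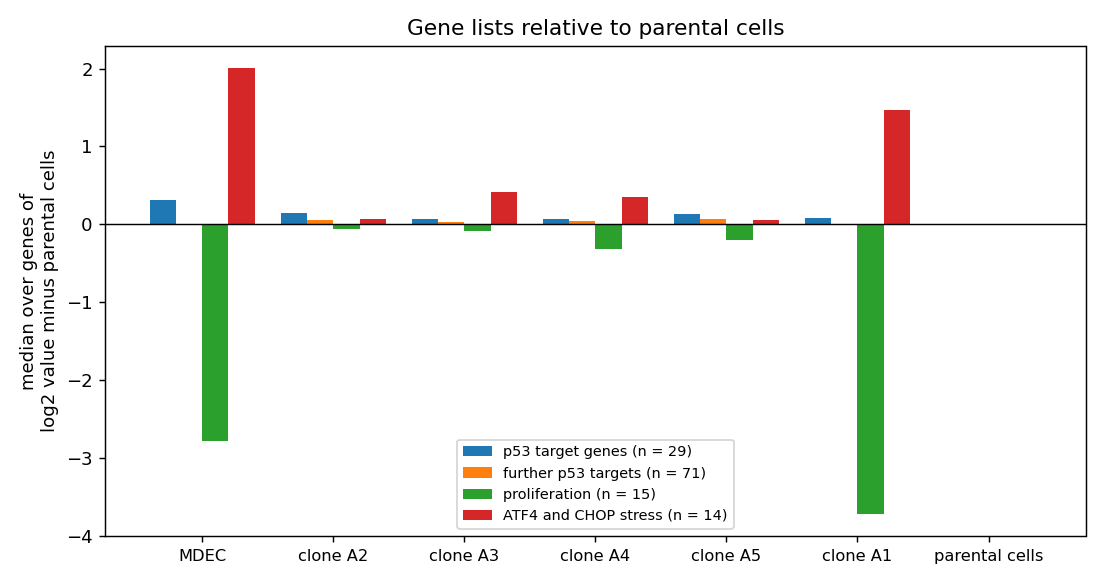
Median over genes of the log2 value minus that of parental cells (vertical axis) for 4 gene lists in each array, with parental cells at 0 by construction. Clone A1 and MDEC stand apart in the proliferation and stress lists, where the p53 target genes lie at 0.08 and 0.31, with members of clone A1 that go both ways (-2.64 to 2.45).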

How the data were processed

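Total RNA of 7 samples was labelled with biotin and hybridised to 1 array each, per the labels' protocols. Each deposited value is the log2 expression of a probe set on an array, on a range of 1.39 to 13.5. Partek is named in the submitters' processing notes, without a version. Background correction, normalization and build are steps not given in the sources used here. No detection calls were at hand, so signal over background is unknown and precision depends on how many arrays there are. No array was rescaled.

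Of 35557 probe sets, 21789 carried 1 gene symbol in the platform annotation, 1621 carried several and 12147 none. Probe sets with several were not named. Of the single-symbol ones, 21698 matched a GRCm38.p6 gene table and 0 symbols changed. The brightest probe set stood for the 999 genes with several, and each p53 target gene had 1.

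The B16F10 arrays were fitted in R 4.3.3 by limma 3.58.1, using lmFit followed by trended eBayes, two-sided, with Benjamini-Hochberg adjustment over all 19938 genes and a threshold of 0.05. One fit set 4 PECAM1+ against 2 PECAM1- arrays. The other had 3 groups (PECAM1+ clones, clone A1, parental cells), with the lone arrays assumed to vary like the clones. Each difference is the first-named group minus the second. MDEC was described by the 4-fold rule. The code was tested on simulated data.

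The members and gene lists were chosen with earlier results of these data known. All measured members could be named, and other genes were named by the largest absolute difference within their list. Proliferation, stress and pathway lists and markers of melanocytes, endothelium, leukocytes and fibroblasts were measured. The median log2 value of 4 leukocyte markers was 4.98 to 5.12 over the 7 arrays, and that of 5 fibroblast and mural markers was 7.02 to 7.76. Alternatives were quantile normalization, median centring, leaving out genes with a mean log2 value under 6, averaging probe sets, other variance models, array weights and leaving out each array.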

Additional observations from a re-analysis of the deposited data

Results flagged for a closer look

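In 5 members (17.2%), 1 of the 4 PECAM1+ clones lay far from the other 3 relative to the range of the group, past the limit of Dixon's test, beside 21.1% of all genes. The nominal rate of about 1 in 20 groups does not apply here, because clones with identical values leave even a small departure past the limit. Among members with no identical values among the clones, 1 of 23 had such a gap (4.35%), beside 6.31% of all genes. That member was Plk2, the stress-induced polo-like kinase, which had 7.86 in clone A3, against 7.21 to 7.28 in the other clones. The other 4 had identical values in 2 or 3 clones, so their gaps say little. Dram1 had 5.83 in clone A2, against 6.00 to 6.01. Pmaip1 had 5.64 in clone A5, against 5.60 in the others. Mdm2 had 11.12 in clone A5, while the other 3 clones shared the value 11.05. Fas had 4.39 in clone A2, while the others shared the value 4.46.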

How the results depend on the processing

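The counts of called p53 target genes changed by over 1.5 times in few settings. For the PECAM1+ clones against the PECAM1- samples the count of 0 became 10 without parental cells, which leaves clone A1 alone as the PECAM1- side, and the range on leaving out single arrays was 0 to 10. Against parental cells the count stayed at 0 throughout. Against clone A1 it was 7 to 9 on leaving out single clones, and for clone A1 against parental cells 6 to 9. For MDEC the count of 4 was 7 at 2-fold and 5 without clone A1. Gadd45a, Plk3, Gtse1, Ddb2 and Rrm2b were called against clone A1 in all 10 alternatives, and Mdm2, Plk3, Gtse1, Ddb2 and Rrm2b between clone A1 and parental cells. None of these 10 alternatives left out clone A1 or parental cells, so they cannot show how far the calls rest on those single arrays. Without dim genes, the median difference was 0.15 for the PECAM1+ clones against the PECAM1- samples and 0.17 for clone A1 against parental cells. Differences that were not called changed sign in 28 values, spread over 20 pairs of a member and a comparison. In the PECAM1+ against PECAM1- comparison, leaving out single arrays gave -0.020 to 0.81 for Mdm2, -0.69 to 0.34 for Mdm4, -0.15 to 0.037 for Ppm1d, -0.028 to 0.29 for Ccng1, -2.11 to 0.34 for Gadd45a, -0.0011 to 0.089 for Bbc3, -0.068 to 0.068 for Apaf1, -0.69 to 0.12 for Eda2r, -1.20 to 0.057 for Ddb2, -0.078 to 0.51 for Polk, -0.73 to 0.17 for Rrm2b and -0.039 to 0.16 for Dram1. Against parental cells it gave -0.0097 to 0.045 for Tigar and -0.057 to 0.0051 for Dram1. Against clone A1 it gave -0.020 to 0.10 for Ppm1d, -0.073 to 0.067 for Rprm, -0.015 to 0.0079 for Bbc3 and -0.014 to 0.23 for Eda2r. Apaf1 was 0.032 under quantile normalization, and Tigar against parental cells was -0.011 under median centring. With clone A1 joined to the PECAM1+ clones, an alternative chosen after seeing the data, as was leaving clone A1 out of the MDEC comparison, the differences from parental cells were 0.32 for Plk3, -0.28 for Gtse1 and -0.0089 for Tigar. No paired analysis was possible because the clones and the parental cells share no numbering that the labels give a meaning. Identical values in 2 or more B16F10 arrays, seen in 7 of 29 members and 50.9% of all genes, can make the spread of a gene too small. The cause of the changes was not tested beyond these settings.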
